A study of Mus musculus with 22 samples.

Results

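The liver secretes most of the plasma proteins that clot blood, keep clotting in check, dissolve clots and carry out complement attack. The 38 genes described here encode such proteins: the contact factors, the coagulation cascade, fibrinogen, the anticoagulants, plasminogen and its partners, and the complement components from the recognition lectins to the membrane attack complex. The list was chosen with earlier results of these data known, and its probes were taken by name. Every non-control probe whose gene name in the array files was one of the listed symbols was taken. This gave 55 probes for 37 of the 38 symbols, of 28034 gene names on the array. C5 had no probe under that symbol. The array carries this gene under its mouse name Hc, which lies outside the rule, and its mean log2 ratio lay between 7.02 and 7.61 in the 6 groups. Of the 37 genes, 24 had 1 probe and 13 had 2 or more, and the brightest probe stood for the gene in every test across genes.

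Liver RNA from 22 C57BL/6 mice was labelled with Cy3 and hybridised, 1 array per mouse, together with a Cy5-labelled common mouse reference RNA. The 8 newborns, wild type (Tcf7l2+/+, 4) or knockout (Tcf7l2-/-, 4), had received 50 ul of 10% glucose under the skin, and their livers were taken 5 h after birth. The 14 adults all carried Tcf7l2loxp/loxp and all received tamoxifen at 3 weeks of age, the controls included. Those without a Cre are called control and those with SA-CreERT2 (LTCF4KO in the labels) are called knockout. After 1 to 2 months they were fasted for 24 h (4 control, 4 knockout) or fed freely (3 control, 3 knockout). Tcf7l2 encodes a transcription factor of the Wnt pathway. The labels do not spell out which promoter drives the Cre, which part of Tcf7l2 was removed or whether littermates were used, and each mouse is named there as a biological replicate of its group.

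Clotting starts either from tissue factor with factor VII or from the contact factors XII, XI and prekallikrein with kininogen. Both routes meet at factor X, which with factor V turns prothrombin into thrombin, and thrombin turns fibrinogen, built from the chains Fga, Fgb and Fgg, into fibrin. Antithrombin (Serpinc1), protein C and protein S hold the cascade back, and plasmin, made from plasminogen, dissolves the clot. Complement is opened by antibody-bound C1 or by mannose-binding lectins with their proteases, runs through C3, and ends in the membrane attack complex of C5b, C6, C7, C8 and C9. In mice the fetal liver is a blood-forming organ, and at birth it still holds many blood-forming cells beside the hepatocytes.

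The sequences below are shown because the results turn on them. C9 had the largest difference of the members between newborn and adult liver, and C3 was read by 2 probes that did not agree. The C9 probe lies at chr15:6433127-6433186 on the plus strand of mm9. The C3 probe is the one that joins separate pieces of chr17:57364538-57364695 on the minus strand. Both positions are those of the array files, and the exon structure around them was not looked up here.
C9 probe: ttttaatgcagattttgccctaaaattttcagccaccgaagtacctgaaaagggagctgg
C3 junction probe: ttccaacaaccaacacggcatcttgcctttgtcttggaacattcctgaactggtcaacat

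Promoter windows, the 250 bases before the annotated start, came from RefSeq on GRCm38.p6, and 29 of the 38 symbols had one. C9 and C6 were far lower in newborns, and Fga and Fgb were higher than the mean of fasted and fed adults. The windows of these genes are printed 5′ to 3′ with motif matches in capitals. They lie at chr15:6445096-6445345 (plus strand), chr15:4726960-4727209 (plus), chr3:83025903-83026152 (plus) and chr3:83049864-83050113 (minus).
C9 promoter: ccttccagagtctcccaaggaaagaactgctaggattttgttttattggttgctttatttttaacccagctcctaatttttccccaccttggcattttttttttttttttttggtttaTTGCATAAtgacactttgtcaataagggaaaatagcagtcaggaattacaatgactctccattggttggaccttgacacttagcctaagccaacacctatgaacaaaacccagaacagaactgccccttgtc
C6 promoter: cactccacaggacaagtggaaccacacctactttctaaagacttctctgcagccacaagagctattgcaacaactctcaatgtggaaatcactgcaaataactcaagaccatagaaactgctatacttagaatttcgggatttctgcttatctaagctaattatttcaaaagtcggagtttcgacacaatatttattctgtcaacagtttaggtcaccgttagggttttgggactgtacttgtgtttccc
Fga promoter: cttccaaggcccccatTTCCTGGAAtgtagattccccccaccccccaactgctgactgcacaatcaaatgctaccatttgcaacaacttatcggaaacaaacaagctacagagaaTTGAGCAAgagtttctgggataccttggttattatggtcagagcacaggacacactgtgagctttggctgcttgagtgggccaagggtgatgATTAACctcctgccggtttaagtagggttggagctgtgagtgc
Fgb promoter: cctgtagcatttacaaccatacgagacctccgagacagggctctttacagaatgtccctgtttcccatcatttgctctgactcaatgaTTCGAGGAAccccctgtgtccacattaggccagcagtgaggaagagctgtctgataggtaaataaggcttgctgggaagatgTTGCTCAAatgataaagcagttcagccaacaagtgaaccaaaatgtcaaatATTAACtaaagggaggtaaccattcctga

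Capitals mark matches on either strand to the letters GTTAAT (the core of an HNF1 site), TTGCNNAA (C/EBP) or TTCNNNGAA (STAT3). The C9 window holds a C/EBP match 132 to 125 bases before the start. The Fga window holds all 3 kinds, with the HNF1 match 43 to 38 bases, the C/EBP match 135 to 128 bases and the STAT3 match 234 to 226 bases before the start. In the Fgb window the same 3 kinds lie 29 to 24, 80 to 73 and 162 to 154 bases before the start. The C6 window held no match to any motif searched. Over the 29 genes with a window, the HNF1 letters were in 27.6% beside 7.49% of 27025 genes with windows of that length, the C/EBP letters in 24.1% beside 10.8%, and the STAT3 letters in 20.7% beside 8.13%. Matches to the HNF4 letters CAAAGTC were in 3.45% beside 4.33%, and to the TCF/LEF letters CTTTGAA or CTTTGAT, the kind of site that the Tcf7l2 protein binds, in 10.3% beside 8.63%. These are counts of letters, not of bound sites.

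Each value below is a log2 ratio of the liver signal to the reference signal on the same array, so a step of 1 is a doubling. In the liver channel 36 of the 37 fitted probes were well above background on all 22 arrays. The exception was C9, above background on 15: all 14 adult arrays and 1 newborn knockout array. No spot was saturated in the liver channel. Over all probes 49.5 to 63.8% were above background in newborn livers, 49.6 to 61.3% in fasted and 22.5 to 30.8% in fed adults. The Tcf7l2 probe read -1.28 to -0.32 in newborn wild type and -1.85 to -1.57 in newborn knockout, without overlap. In adults it was not lower in the knockout: -0.15 to 0.63 against -0.13 to 0.09 in fasted mice and -0.35 to 0.01 against -0.64 to -0.06 in fed mice. Whether the probe lies in the removed part is not given, so it cannot check the adult labels, and "knockout" below is the label. Newborn, fasted and fed livers were scanned on separate days, so age and feeding cannot be told apart from scan day. Newborn wild type and newborn knockout lay on a slide each, so genotype and slide cannot be told apart there. In adults each slide held both genotypes. The number of arrays limits the precision. Newborn wild type 1, newborn knockout 1 and 4, and fasted knockout 1 and 2 stood apart from their groups. Fasted control 3 was low in the liver channel for some members, as given below.

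Several complement genes were far lower in newborn than in adult liver. Relative to the mean of fasted and fed adult controls, newborn wild type livers carried at least 48.0-fold less C9, a bound from the liver channel alone. In the ratio they carried 11.3-fold less C6, 12.7-fold less of the complement inhibitor C4bp and 3.67-fold less C8a. Several clotting proteases were lower as well, F9 by 3.56-fold. The fibrinogen chains Fga and Fgb were 1.79-fold and 1.66-fold higher, lying above all fasted controls but overlapping the fed controls. Of the 37 genes, 25 passed the test (limma, Benjamini-Hochberg adjusted over all genes tested, under 0.05), 8 higher and 17 lower in newborns. Among all 18905 genes tested 58.4% passed, 31.6% higher and 26.8% lower, so a pass alone says little here. The median change was -0.31 over the 37 genes and 0.03 over all genes. Centring each array on its median instead of loess shifted the median of all genes to 0.24 and split the 23 members then called into 12 higher and 11 lower.

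The liver channel read alone, without the reference, was the first check. In it 10 of the 37 were called higher and 16 lower, beside 29.6% and 23.9% of all genes (53.6% in either direction). Fasted control 3 was low in this channel for some members, but not for others such as F2. On the log2 scale it read 15.74 for Vtn, 14.56 for Kng1, 14.65 for Cfi and 15.18 for Proc. The other fasted controls read 17.37 to 17.71, 16.16 to 16.40, 16.37 to 16.52 and 16.56 to 16.72. Liver channel changes of these genes by age in controls, by feeding in controls and between fasted genotypes include that array. Called in the same direction in the ratio and in the liver channel were 4 higher (Fga, Fgb, Kng1 and Plg, beside 26.0% of all genes) and 15 lower (beside 20.9%): C1s, C2, C4bp, C6, C8a, C8b, C8g, C9, F5, F7, F9, Klkb1, Masp2, Mbl1 and Pros1. F12 alone was called in opposite directions, beside 0.0952% of all genes. The ranges of the groups did not overlap for 13 genes, all lower in newborns (35.3% of all genes in either direction, 20.1% higher and 15.3% lower): C2, C4bp, C6, C8a, C8b, C9, F5, F7, F9, Klkb1, Masp2, Mbl1 and Pros1. A group of 10 members kept call and direction in the ratio and in all 4 other readings (median centring, liver channel alone, Feature Extraction's own processed signals, and local backgrounds taken as scanned): Fga and Fgb higher, and C1s, C4bp, C6, C8a, C8g, C9, Masp2 and Pros1 lower. Each reading set newborns against the mean of fasted and fed adults, and against fed controls alone the Fgb ratio changed by -0.09. For Fgb the liver channel is a limited check, since its values lay near the top of the quantile-normalized scale. They were 18.28 to 18.38 in newborn wild type and 17.83 to 18.28 in adult controls. With local backgrounds taken as scanned, 12 members passed in place of 25.

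**Figure D1:**
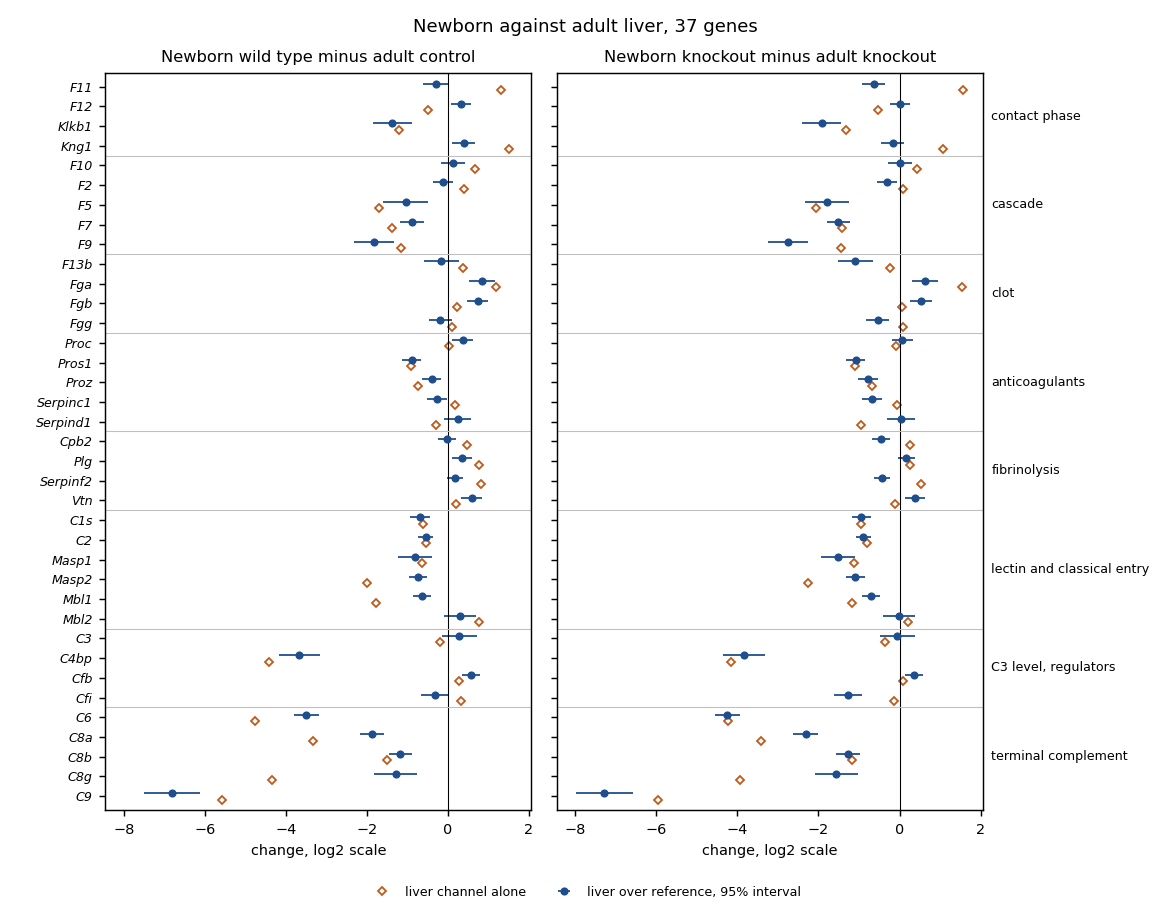
Change from adult to newborn liver for the 37 genes on the log2 scale, ordered by role, in wild type or control mice (left) and in knockout mice (right). Filled circles are the liver over reference ratio with its 95% interval, open diamonds the liver channel alone. C9, C6 and C4bp lie farthest to the left in both panels, at -6.81, -3.50 and -3.67 on the left.

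The 5 terminal complement members with a probe, whose products take part in the membrane attack complex, were all called lower. C5, read by the Hc probe outside the rule, did not go with them in the ratio. Its mean ratio was 7.41 in newborn wild type, 7.05 in fasted and 7.32 in fed controls. In the log2 liver channel alone its means were 16.05, 16.42 and 16.53, lower in newborns. C9, the subunit that forms most of the pore, read 0.58, 0.29, 0.29 and 0.58 in newborn wild type livers. Fasted controls had C9 ratios of 8.27, 8.43, 7.88 and 8.60, and fed controls 5.97, 6.68 and 5.96. Newborn C9 was thus below every adult value, and its signal was not well above background on any of the 4 newborn wild type arrays. The measured change was -6.81 ± 0.33 (SE, limma adjusted p = 3.78e-13). The bound of 48.0-fold sets the adult mean of 12.2 in the log2 liver channel, quantile-normalized alone, against 6.57, the mean over newborn arrays of the C9 signal or the dimmest signal well above background, whichever was higher. With the liver channel taken after loess and quantile normalization of the average brightness of both channels, the same bound was 81.9-fold (13.0 against 6.68). Fasted controls lay above fed controls, so the change was -7.86 against fasted and -5.77 against fed adults alone.

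C6, which starts the complex on the membrane with C5b, had newborn wild type ratios of 1.59, 1.95, 2.52 and 2.43. The adult controls lay at 5.49, 5.71, 5.72 and 5.80 when fasted and 5.60, 5.77 and 5.32 when fed. Fasted and fed ratios overlapped, although the liver channel alone was higher in fasted controls by 1.49, and every newborn ratio lay more than 2 log2 units below every adult one. The change was -3.50 ± 0.15 (SE, limma adjusted p = 3.78e-14) in the ratio, -4.77 in the liver channel alone and -1.81 in the reference channel alone. The same reference RNA was on every array, yet its C6 signal moved with the liver's: this holds for many members, with a Pearson correlation of 0.77 over the 37 genes between the changes of both channels. It is given as a description, since both values of a gene come from the same spots, and its part in the results was not tested.

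The 3 genes of C8 were lower by less. C8a, the alpha chain, read 5.49, 5.69, 5.78 and 5.63 in newborn wild type, 6.72, 7.24, 7.32 and 7.38 in fasted and 7.94, 8.11 and 7.60 in fed controls. Newborn, fasted and fed values were ordered without overlap in that direction. The change was -1.88 ± 0.15 (SE, limma adjusted p = 6.75e-10) and -3.34 in the liver channel. C8b, the beta chain, read 5.97, 5.87, 6.03 and 5.92 in newborns, 6.58, 6.89, 7.12 and 7.23 in fasted and 7.44, 7.42 and 7.00 in fed controls. Again no newborn reached an adult value, and the change was -1.17 ± 0.14 (SE, limma adjusted p = 4.43e-07). C8g, the lipocalin chain, had a ratio change of -1.29 ± 0.26 (SE, limma adjusted p = 0.00021), but -4.34 in the liver channel and -3.12 in the reference channel.

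Of the genes acting around C3 and its control, 1 rose, 1 fell and 2 did not pass. C4bp, an inhibitor of the classical pathway convertase, read 5.03, 5.78, 4.91 and 4.76 in newborn wild type livers. Its adult control values were 8.16, 8.75, 8.41 and 8.75 after fasting and 9.25, 9.14 and 8.79 with food. The gap was the second widest among the 37 genes, -3.67 ± 0.25 (SE, limma adjusted p = 6.31e-11). Cfb, the protease of the alternative pathway, was higher by 0.57 ± 0.10 (SE, limma adjusted p = 6.96e-05), with 0.27 in the liver channel, not called there. Cfi, which cuts C3b and C4b, changed by -0.32 ± 0.17 and did not pass (limma adjusted p = 0.107).

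C3, the hub of all complement routes, depended on the probe. Its main probe read 3.97, 5.00, 5.26 and 5.01 in newborn wild type, 4.17, 4.16, 4.45 and 4.19 in fasted and 4.90, 4.97 and 4.61 in fed controls, which overlap. That change was 0.28 ± 0.21 and did not pass (limma adjusted p = 0.270). The junction probe printed above read 2.03, 2.78, 3.14 and 2.97 in the same newborns, 3.63, 4.46, 4.35 and 4.34 in fasted and 3.58, 3.75 and 3.65 in fed controls. With this probe newborns lay below every adult, at -1.20 ± 0.23 (SE, limma adjusted p = 1.80e-04 over all probes). C3 was the only 1 of 12 genes with 2 or more tested probes whose probes differed in sign in this comparison.

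At the entry to complement, 5 of 6 genes were lower and 1 did not pass. Mbl1, a mannose-binding lectin, read 5.59, 5.49, 5.47 and 5.40 in newborn wild type, 5.87, 6.21, 6.19 and 6.34 in fasted and 6.28, 6.14 and 5.90 in fed controls. The difference was small but without overlap, -0.64 ± 0.11 (SE, limma adjusted p = 3.93e-05), and it was -0.08 and not called after median centring. The other lectin, Mbl2, read 6.30, 6.02, 5.95 and 5.99 in newborns, 5.13, 5.51, 5.51 and 6.14 in fasted and 6.29, 5.95 and 5.61 in fed controls. These ranges overlap, and its change of 0.30 ± 0.19 did not pass (limma adjusted p = 0.178). Masp2, the gene of a lectin-bound protease that cuts C4 and C2, read 3.74, 3.24, 3.55 and 3.66 in newborns, 4.03, 4.12, 3.77 and 4.201 in fasted and 4.64, 4.61 and 4.41 in fed controls. It changed by -0.74 ± 0.11 (SE, limma adjusted p = 6.39e-06), with all 3 of its probes below 0. The array files assign these probes to different transcripts, and which protein form the fitted probe reads was not looked up. C1s, C2 and Masp1 changed by -0.68, -0.55 and -0.80.

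In the coagulation cascade 3 genes were lower and 2 did not pass. F9, the X-linked haemophilia B gene, read 2.81, 2.88, 2.98 and 2.78 in newborn wild type, 5.05, 5.59, 4.71 and 5.78 in fasted and 3.80, 4.15 and 4.35 in fed controls. Newborns lay below all adults, and fed adults lay between newborns and fasted adults. The change was -1.83 ± 0.24 (SE, limma adjusted p = 1.33e-06). F7, the partner of tissue factor, and F5, the cofactor of factor X, changed by -0.89 ± 0.14 and -1.04 ± 0.26. F5 turned to 0.18 with Feature Extraction's processed signals, and its spot on fasted control 3 was left out as an outlier. F2, prothrombin, read 6.39, 6.56, 6.69 and 6.16 in newborns, 5.55, 5.72, 5.88 and 5.99 in fasted and 7.55, 7.36 and 7.11 in fed controls. Newborn prothrombin thus lay between fasted and fed adults, and its change of -0.11 ± 0.12 did not pass (limma adjusted p = 0.434). F10 changed by 0.13 and did not pass.

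Of the 4 contact genes 2 were higher, 1 was lower and 1 did not pass. Klkb1, prekallikrein, read 4.40, 5.95, 5.85 and 5.57 in newborn wild type, 7.32, 7.62, 7.68 and 7.78 in fasted and 6.02, 5.97 and 6.08 in fed controls. Its change was -1.37 ± 0.23 (SE, limma adjusted p = 2.95e-05), with the highest newborn just below the lowest fed adult. Kng1, kininogen, was higher by 0.38 ± 0.14 in the ratio and 1.50 in the liver channel. F12 was higher by 0.33 in the ratio and changed by -0.49 in the liver channel, both called. F11 changed by -0.31 and did not pass, while its liver channel rose by 1.32.

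**Figure D2:**
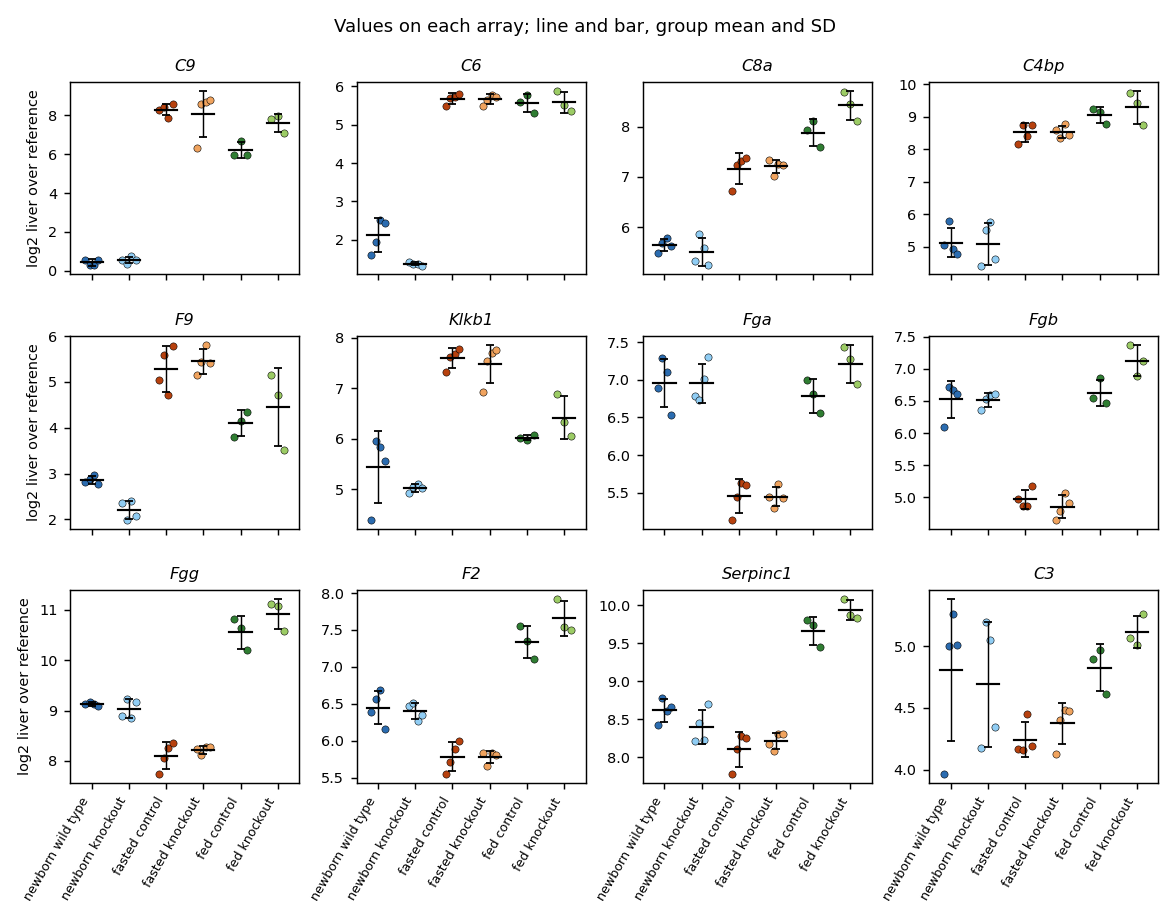
Log2 liver over reference ratio of 12 genes on every array, 1 point per mouse, with a line for the group mean and a bar for the SD. C9, C6, C8a and C4bp are low in both newborn groups, and Fga, Fgb, Fgg, F2 and Serpinc1 are lower in fasted than in fed adults.

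The fibrinogen chains went separate ways. Fga read 6.90, 7.29, 7.11 and 6.53 in newborn wild type, 5.14, 5.45, 5.63 and 5.59 in fasted and 7.00, 6.81 and 6.56 in fed controls. Fgb read 6.10, 6.72, 6.66 and 6.61 in newborns, 4.97, 4.86, 4.86 and 5.18 in fasted and 6.54, 6.85 and 6.46 in fed controls. For both chains the newborns lay above all fasted adults and overlapped the fed adults. Fga was higher by 0.84 ± 0.15 (SE, limma adjusted p = 6.79e-05) and Fgb by 0.73 ± 0.13 (SE, limma adjusted p = 5.57e-05). Against fasted adults alone these were 1.51 and 1.55, and against fed adults alone 0.17 and -0.09. Fgg, the third chain, read 9.13, 9.18, 9.13 and 9.08 in newborns, 7.74, 8.05, 8.25 and 8.35 in fasted and 10.83, 10.64 and 10.20 in fed controls. Its newborn values sat in the gap between the adult groups, with a change of -0.20 ± 0.14 that did not pass (limma adjusted p = 0.224). F13b, the carrier subunit of the fibrin crosslinking factor, changed by -0.16 and did not pass.

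Among the anticoagulants 1 gene was higher, 2 were lower and 2 did not pass. Pros1, protein S, read 0.94, 1.17, 0.94 and 0.88 in newborn wild type, 1.50, 1.94, 1.62 and 1.70 in fasted and 1.93, 2.15 and 2.13 in fed controls. It was lower without overlap, with a change of -0.90 ± 0.11 (SE, limma adjusted p = 6.74e-07) in the ratio, -0.91 in the liver channel and -0.01 in the reference channel. Serpinc1, antithrombin, read 8.42, 8.78, 8.60 and 8.67 in newborns, 7.78, 8.11, 8.28 and 8.25 in fasted and 9.80, 9.74 and 9.45 in fed controls. As for prothrombin, newborns lay between the adult groups, and the change of -0.27 ± 0.12 did not pass (limma adjusted p = 0.0615). Proc was higher by 0.37, Proz changed by -0.41 and was lower, and Serpind1, heparin cofactor II, changed by 0.24 and did not pass. In fibrinolysis Plg, plasminogen, was higher by 0.35 with 1 newborn spot left out, Vtn, vitronectin, was higher by 0.58, and Cpb2 and Serpinf2 did not pass.

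The direction of the higher genes depended on the adult state. Against fasted controls alone 15 members were called higher and 16 lower, and against fed controls alone 0 were higher and 22 lower. Shares of all genes called against either group alone are not given here, so these counts describe the members only. Kng1, Plg and Proc turned from 0.97, 1.15 and 0.88 against fasted to -0.20, -0.45 and -0.15 against fed adults. Vtn went from 1.16 against fasted to 0.00 against fed adults, and Cfb was 0.04 against fed adults. Without newborn wild type 2 the calls of F12, Kng1, Plg and Proc were lost, leaving 4 higher. C6, C8a, C8b, C8g, C9, C4bp and F9 lay at or below -0.88 against either adult group.

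Markers of other cells moved with age too. In newborn wild type livers 7 of 8 erythroid, 9 of 9 neutrophil and 7 of 7 megakaryocyte markers were higher than in adult controls. Their summed liver-channel intensity, after normalization, ranged from 431803 to 548891 for the erythroid list in newborn wild type and from 29218.2 to 72897.8 in fasted controls. The neutrophil list ranged from 328453 to 496960 and from 1160.06 to 1832.27, with Camp, Elane and Ngp not above background on any fasted control array. Hepatocyte markers were higher in 2 and lower in 4 of 8 cases, and their sum ranged from 1189610 to 1332470 in newborn wild type, 974613 to 1309500 in fasted and 1505080 to 1613500 in fed controls. In bulk liver fewer cells of a type and less RNA per cell cannot be told apart, and the part of cell makeup in these results was not tested. Of 15 acute phase genes, 5 were higher and 5 lower in newborns, beside 31.6% and 26.8% of all genes.

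The same comparison in knockout mice used other arrays throughout. It called 29 of the 37 genes, 4 higher and 25 lower, beside 61.4% of all genes (32.9% higher, 28.5% lower). After median centring 10 were higher and 15 lower. Called lower in the ratio and in the liver channel were 16 (beside 22.3% of all genes), and they hold all 15 of the wild type comparison with Masp1 added. Called higher in both readings was Fga alone (beside 27.4%), and F11 and Serpinf2 were called in opposite directions (beside 0.434%). For 18 genes the group ranges did not overlap, beside 39.3% of all genes.

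C9 read 0.56, 0.34, 0.77 and 0.58 in newborn knockout, 6.31, 8.56, 8.67 and 8.80 in fasted knockout and 7.81, 7.94 and 7.07 in fed knockout livers. Its change of -7.28 ± 0.33 (SE, limma adjusted p = 1.19e-13) rests on 1 newborn array above background, so its size is uncertain. The bound, made as for the wild type, was at least 62.6-fold in the liver channel alone. C6 read 1.43, 1.37, 1.37 and 1.32 in newborns against 5.48, 5.65, 5.78 and 5.72 in fasted and 5.89, 5.52 and 5.34 in fed knockouts, a change of -4.25 ± 0.15 (SE, limma adjusted p = 1.53e-15). C4bp read 4.41, 5.52, 5.75 and 4.63 in newborns and at least 8.34 in every adult knockout. All 3 genes thus showed the age gap without overlap in this genotype too; whether the gap differed in size between genotypes was not tested. C8a, at 5.33, 5.85, 5.58 and 5.25 in newborns and 7.02 to 8.70 in adults, changed by -2.31 ± 0.15 (SE, limma adjusted p = 2.30e-11). F9, at 2.35, 1.99, 2.41 and 2.07 in newborns and 3.51 to 5.81 in adults, changed by -2.75 ± 0.24 (SE, limma adjusted p = 3.05e-09). F7, at 4.14, 4.05, 4.24 and 4.08 against 5.26 to 6.45, changed by -1.52 ± 0.14. Masp2 and C2 changed by -1.09 and -0.89, again with no newborn inside the adult range. Fga, Fgb, Cfb and Vtn were higher by 0.63, 0.53, 0.36 and 0.38, and all 4 were below 0 against fed knockouts alone.

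The genotype comparison in newborns asks whether these genes differed at birth in mice lacking Tcf7l2, and 1 of 36 tested members passed, beside 1.50% of all genes. C9 was too dim in newborns to be tested. F9 read 2.35, 1.99, 2.41 and 2.07 in newborn knockout and 2.81, 2.88, 2.98 and 2.78 in newborn wild type. Every knockout lay below every wild type, and the change was -0.66 ± 0.12 (SE, limma adjusted p = 0.0380). The liver channel alone gave 0.01 and the reference channel alone 0.58, so a brighter reference signal stood beside the lower ratio. The call was lost whenever any newborn array other than wild type 1 was left out.

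Serpinf2, the plasmin inhibitor, came next with 5.75, 6.01, 5.81 and 5.90 in knockout and 6.41, 6.29, 6.26 and 6.47 in wild type newborns. This was -0.49 ± 0.11 without overlap, and it did not pass (limma adjusted p = 0.0565), although it did without a filter or with all arrays in the fit. C6, at 1.43, 1.37, 1.37 and 1.32 in knockout and 1.59, 1.95, 2.52 and 2.43 in wild type, changed by -0.75 ± 0.19 and did not pass (limma adjusted p = 0.100). It passed with Feature Extraction's signals, at -1.43, with all arrays in the fit and without newborn wild type 1, while the liver channel alone gave -0.10 and the reference channel 0.64. For 6 genes the ranges did not overlap, all lower in the knockout (9.54% of all genes in either direction, 3.66% lower). At an unadjusted p under 0.05 there were 8, all lower, and the share of all genes at that threshold is not given here. In the liver channel alone 0 of the 36 were called, beside 4.79% of all genes. The median change was -0.18 over the members and -0.01 over all genes. Fibrinogen genes did not pass: Fga and Fgb each changed by less than 0.01 in size, with 95% intervals from -0.42 to 0.42 and from -0.34 to 0.33. Prothrombin, antithrombin, C3, Mbl1 and Mbl2 changed by -0.05, -0.22, -0.12, 0.05 and -0.21, and did not pass. Of 9 Kupffer cell markers, 2 were lower in the knockout newborns, with a summed intensity of 23891.6 to 34220.0 against 45652.8 to 68827.5 in wild type; its part here was not tested.

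**Figure D3:**
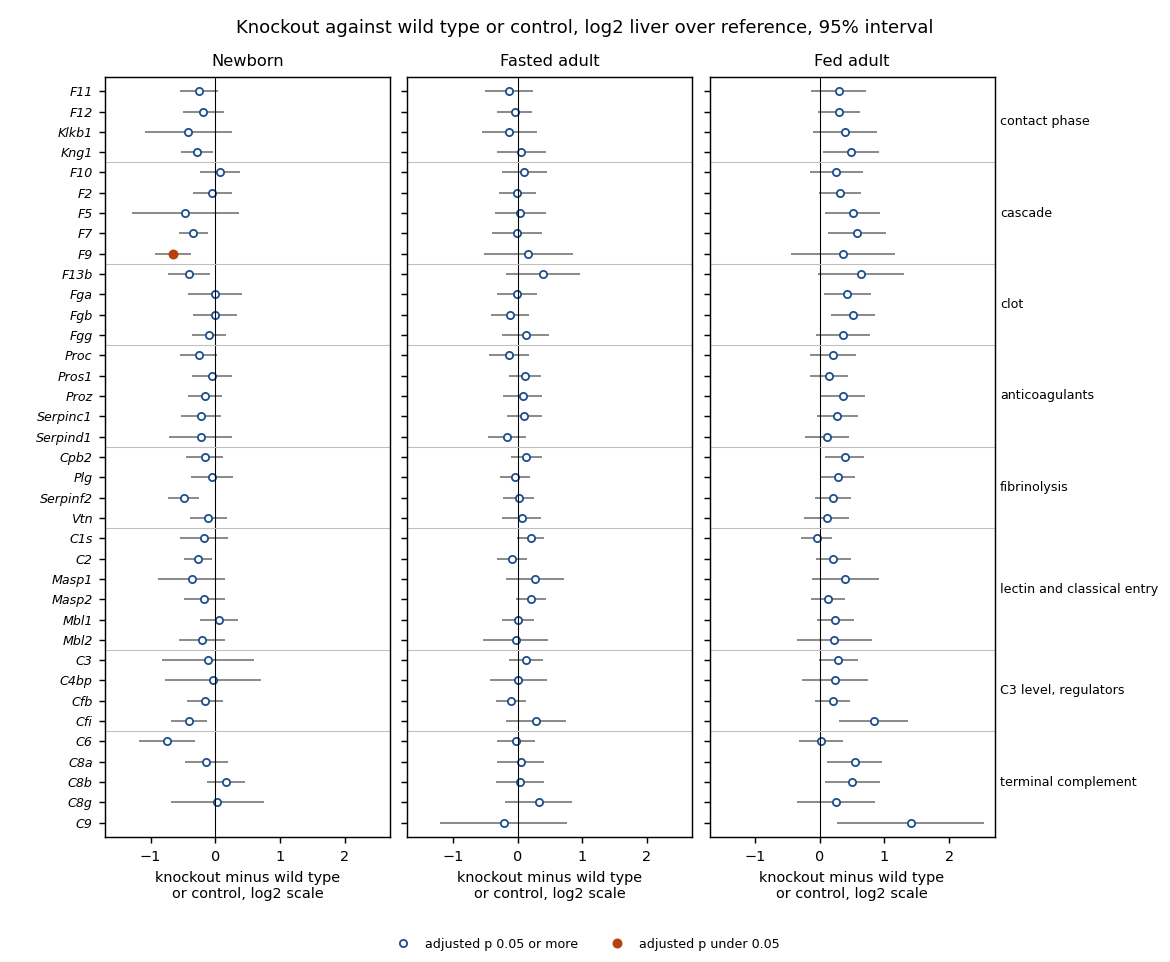
Knockout minus wild type or control for each gene on the log2 scale with its 95% interval, in newborn, fasted adult and fed adult liver. The filled point, F9 in newborns at -0.66, is the only call, and 36 of 37 points lie above 0 in the fed adults.

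Between fasted adult knockout and control livers 0 of 37 members passed, beside 0.477% of all genes, and 0 had an unadjusted p under 0.05. The changes ran from -0.21 for C9 to 0.39 for F13b, and the 95% interval lay within 1 log2 unit either way for 36 of 37, C9 being the exception. C1s, the protease of the first component, came closest with 2.28, 2.29, 2.30 and 2.40 in knockout and 2.22, 2.21, 1.87 and 2.16 in control livers. These ranges did not overlap, which was so for 6.46% of all genes, but the change of 0.20 ± 0.10 did not pass (limma adjusted p = 0.467). Masp2 read 4.31, 4.12, 4.25 and 4.29 in knockout and 4.03, 4.12, 3.77 and 4.201 in control livers, 0.21 ± 0.11 (limma adjusted p = 0.496). F13b read 8.32, 8.32, 8.87 and 8.64 against 8.19, 8.54, 7.23 and 8.61, with control 3 low, and did not pass (limma adjusted p = 0.649). Fga, Fgb, Fgg, F2 and Serpinc1 changed by -0.01, -0.11, 0.12, -0.00 and 0.11. C3, Mbl1 and Mbl2 changed by 0.13, 0.00 and -0.03. Summed pancreas and fat markers ranged from 591.626 to 44925.7 in fasted knockout livers against 656.581 to 856.332 in fasted controls, and their part was not tested.

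In fed adults 0 of 37 passed as well, beside 0.215% of all genes. Among the members 36 of 37 changes lay above 0 and 12 had an unadjusted p under 0.05, all higher in the knockout. Shares of all genes above 0 or at that unadjusted p are not given here, so these counts are a description. The median change was 0.29 over the members and 0.02 over all genes. Median centring shifted the all-gene median to -0.10. For 12 members the ranges did not overlap, all higher (11.2% of all genes in either direction, 7.02% higher). Cfi read 11.89, 12.02 and 11.29 in knockout and 10.98, 11.19 and 10.53 in control livers, 0.83 ± 0.24 (limma adjusted p = 0.356). Fgb read 7.37, 6.89 and 7.11 against 6.54, 6.85 and 6.46, 0.51 ± 0.16 (limma adjusted p = 0.388). F7, at 6.45, 5.70 and 5.65 against 5.64, 5.35 and 5.08, changed by 0.58 ± 0.21 (limma adjusted p = 0.538). C9 had the widest gap, 7.81, 7.94 and 7.07 against 5.97, 6.68 and 5.96, which gave 1.41 ± 0.52 (limma adjusted p = 0.569). In the liver channel alone 0 were called, beside 0.279% of all genes, and the median was 0.17. The other members fixed for naming, Fga, Fgg, F2, Serpinc1, C3, Mbl1 and Mbl2, changed by 0.43, 0.36, 0.32, 0.27, 0.29, 0.24 and 0.23.

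Feeding moved more members than genotype did in adults, but the ratio and the liver channel often differed in direction. In controls 26 of 37 genes passed between fasted and fed livers, beside 36.8% of all genes: 4 were higher when fasted (20.2% of all genes) and 22 lower (16.6%). The median change was -0.56 over the members and 0.05 over all genes. In the liver channel alone 8 were called higher and 1 lower, beside 22.3% and 15.7% of all genes (38.0% in either direction), with a median of 0.07. Of the 22 lower ratios, 13 had a liver channel change above 0, and 16 had a reference channel change above 0. After median centring, which shifted the all-gene median to 0.26, 8 members were called higher and 8 lower. For 26 genes the ranges did not overlap, beside 43.6% of all genes.

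The members with the clearest falls in the ratio were abundant clotting and clot-dissolving proteins. Plg read 5.88, 5.96, 6.12 and 6.17 in fasted and 7.81, 7.58 and 7.51 in fed controls. This separation gave -1.60 ± 0.11 (SE, limma adjusted p = 3.26e-06), while the liver channel changed by 0.44, not called, and the reference by 1.18. Fgg read 7.74, 8.05, 8.25 and 8.35 in fasted against 10.83, 10.64 and 10.20 in fed controls. Its ratio fell by the largest amount, -2.45 ± 0.18 (SE, limma adjusted p = 3.63e-06), with 0.23 in the liver channel and 1.11 in the reference. Fgb, at 4.97, 4.86, 4.86 and 5.18 against 6.54, 6.85 and 6.46, changed by -1.65 ± 0.15, and by 0.18 in the liver channel. In the quantile-normalized liver channel Fgg lay at 17.62 to 18.25 and Fgb at 17.83 to 18.28 in controls, near the top. The main C3 probe lay there too, at 17.74 to 18.38. Quantile normalization gives every array the same set of values, so changes of such bright probes are compressed there. Their liver channel changes are therefore a limited check on the ratio.

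Fga, the alpha chain of fibrinogen, moved in opposite directions in the ratio and the liver channel. Its ratio was 5.14, 5.45, 5.63 and 5.59 in fasted and 7.00, 6.81 and 6.56 in fed controls, -1.34 ± 0.16 (SE, limma adjusted p = 6.52e-05). Its log2 liver signal was 16.28, 15.13, 15.01 and 15.33 in fasted and 13.94, 13.83 and 13.47 in fed controls, which is higher when fasted by 1.69. Its log2 reference signal was 12.51, 11.26, 11.02 and 11.28 on the fasted arrays and 9.09, 9.24 and 9.05 on the fed arrays, a rise of 2.39 for the same RNA. C8a, Cfb, Fga and Serpinf2 were called lower in the ratio and higher in the liver channel, beside 3.57% of all genes called in opposite directions. The direction of these 4 with feeding is therefore not settled by these arrays. The channels were normalized separately, so their changes do not add up to that of the ratio.

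F2 read 5.55, 5.72, 5.88 and 5.99 in fasted and 7.55, 7.36 and 7.11 in fed controls, -1.55 ± 0.14, with 0.07 in the liver channel. Serpinc1 read 7.78, 8.11, 8.28 and 8.25 against 9.80, 9.74 and 9.45, -1.56 ± 0.14, with -0.26 in the liver channel. Serpinf2 read 5.33, 5.72, 5.64 and 5.66 against 6.94, 6.68 and 6.74, -1.20 ± 0.12. Prothrombin and its main inhibitor both fell in the ratio and were not called in the liver channel; the other Serpinc1 probe gave -0.75 in the ratio and 0.52 in the liver channel. Cfb read 4.26, 4.60, 4.39 and 4.56 against 5.47, 5.73 and 5.34, -1.06 ± 0.12, and its liver channel was higher by 0.79. C3 changed by -0.58 ± 0.13 in the ratio but turned to 0.41 after median centring. Mbl1 and Mbl2 changed by 0.04 and -0.38 and did not pass.

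The 4 genes higher when fasted were C9, Klkb1, F9 and F5. C9, at 8.27, 8.43, 7.88 and 8.60 against 5.97, 6.68 and 5.96, changed by 2.09 ± 0.49 (SE, limma adjusted p = 0.00524). Klkb1, at 7.32, 7.62, 7.68 and 7.78 against 6.02, 5.97 and 6.08, changed by 1.58 ± 0.22 (SE, limma adjusted p = 0.000178). F9 and F5 changed by 1.18 ± 0.35 and 0.74 ± 0.19. C9, Klkb1 and F5 were also called higher in the liver channel, beside 8.59% of all genes, whereas the F9 liver channel gave -0.18. That F9 value includes fasted control 3, at 9.98 in the log2 liver channel beside 11.23, 11.92 and 11.80 in the other fasted controls. Fed controls read 11.38, 11.42 and 11.45, so the sign of the F9 liver change rests on that array. All 4 genes turned below 0 in the ratio where local backgrounds were taken as scanned: -0.06 for C9, -0.72 for Klkb1, -0.52 for F9 and -0.98 for F5. F5 was also -0.81 with Feature Extraction's processed signals. Masp2 was the only member called lower in both readings (beside 5.77% of all genes), at -0.52 in the ratio and -1.25 in the liver channel. Fasted control 3 was low in that channel for Masp2 too, at 12.11 beside 13.84, 13.83 and 13.86. The brightest Masp2 probe gave 0.04 after median centring, and another probe, assigned to a different transcript in the array files, rose by 1.21.

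**Figure D4:**
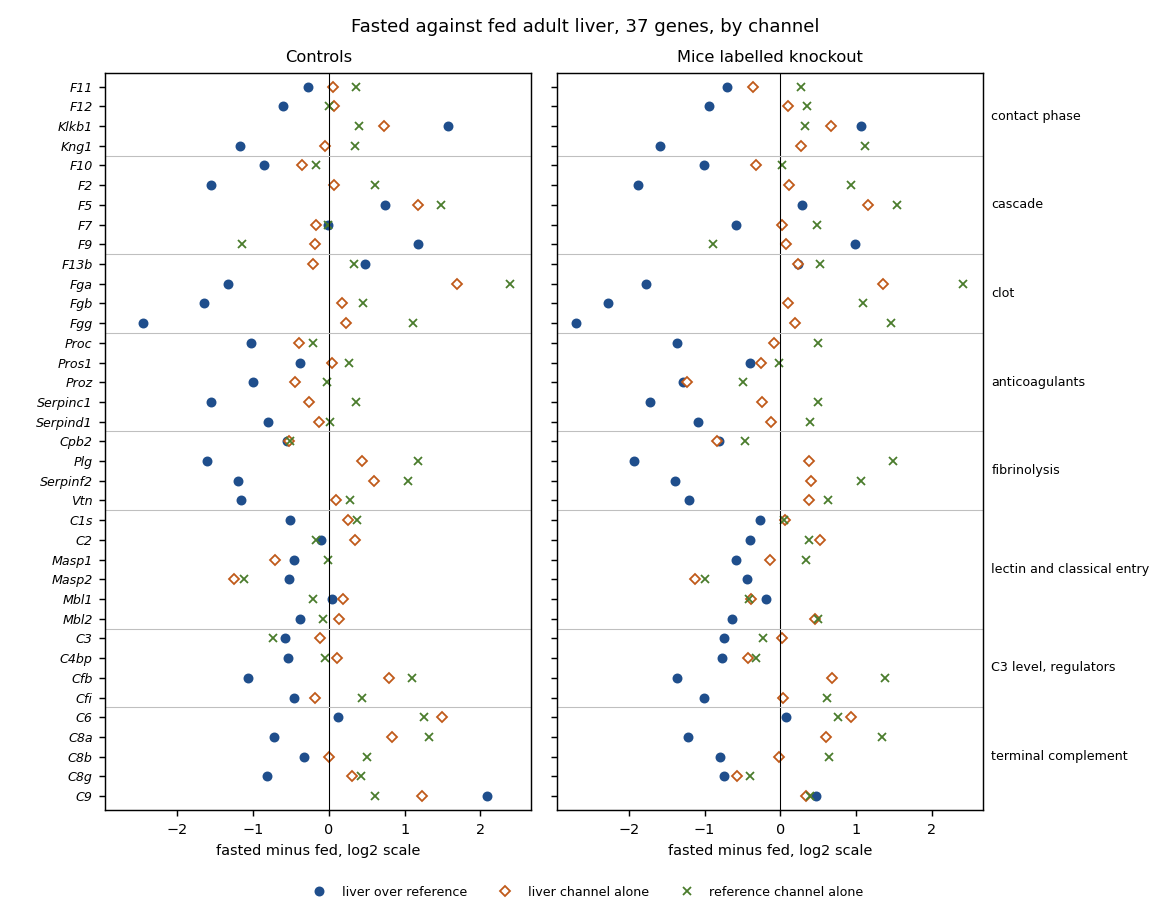
Fasted minus fed change of each gene on the log2 scale in control and knockout adults, for the ratio (filled circles), the liver channel alone (open diamonds) and the reference channel alone (crosses). Most ratio points lie left of 0 and most reference points right of 0, with Fga at -1.34 and 2.39 in controls.

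Knockout adults gave 29 calls between fasted and fed livers, 2 higher and 27 lower, beside 35.7% of all genes (18.7% higher, 17.0% lower), and 21 genes were lower in both genotypes. Plg, Fgg and Fgb again led. Plg read 5.98, 5.92, 6.04 and 6.04 in fasted and 8.09, 7.91 and 7.76 in fed knockouts, -1.93 ± 0.11 (SE, limma adjusted p = 6.93e-07). Fgb read 4.65, 4.80, 5.07 and 4.91 against 7.37, 6.89 and 7.11, -2.27 ± 0.15 (SE, limma adjusted p = 1.16e-06). Fgg read 8.23, 8.11, 8.27 and 8.29 against 11.11, 11.07 and 10.57, -2.69 ± 0.18 (SE, limma adjusted p = 1.66e-06). In each of these 3 genes every fasted value lay below every fed value, as in the controls. F2, Serpinc1, Cfb, Serpinf2 and Fga changed by -1.87, -1.72, -1.36, -1.40 and -1.77. In the liver channel alone 8 members were higher and 2 lower (beside 17.2% and 11.9% of all genes), and 7 of the 8 were also higher in the liver channel in controls: C6, C8a, Cfb, F5, Fga, Klkb1 and Serpinf2. Called in the same direction in both readings were Klkb1 higher (beside 6.32% of all genes) and Cpb2 and Masp2 lower (beside 4.75%), and 5 were called in opposite directions (beside 2.77%). Klkb1 lost its call with Feature Extraction's processed signals and Cpb2 after median centring, where Masp2 turned to 0.25. Of the members called by feeding, 0 in controls and 0 in knockouts kept call and direction in the ratio and in all 4 other readings. C9 changed by 0.48 and did not pass. With fasted knockout 1 and 2 left out 23 members passed, and median centring split the 18 then called into 7 higher and 11 lower.

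The difference between genotypes in their response to feeding was tested directly, and 0 of 37 members passed (0 of all 17188 genes, limma), with 2 at an unadjusted p under 0.05. These were C9, at -1.62, and Fgb, at -0.62, and the smallest adjusted p among members was 0.684. With local backgrounds taken as scanned the C9 value turned to 0.78. F7 changed by -0.58 and turned to 0.20 in the liver channel. Hepatocyte markers fell with fasting in 8 of 8 cases in the ratio in both genotypes, and in the liver channel alone 2 of the 8 fell in controls and 3 in knockouts. The share of probes above background also differed between fasted and fed arrays, as given above, and its part was not tested.

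Different probes of a gene did not always agree in sign. Of 12 genes with 2 or more tested probes, 6 had probes of opposite sign in the feeding comparison of controls: C2, C3, Masp1, Masp2, Pros1 and Proz. Between fasted genotypes, where 0 genes had probes called in opposite directions, the probes of 6 genes also differed in sign. By feeding in controls, for Masp1, Masp2, Pros1 and Proz both signs were called, for example -0.38 for the brightest Pros1 probe and 0.54 for another. In the newborn genotype comparison the other F9 probe changed by -0.25 and did not pass. In the age comparison of knockout mice 0 genes had probes of opposite sign.

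The wider pathway was covered by 49 other coagulation and complement genes on the array, not members of the list. Between newborn wild type and adult controls 13 of 45 tested were higher and 13 lower, beside 31.6% and 26.8% of all genes. These counts alone therefore say little about the pathway. Clu, clusterin, an inhibitor of the membrane attack complex, changed by -2.27 ± 0.10 (limma adjusted p = 1.43e-13). Fcnb, a ficolin of myeloid cells, F13a1, the catalytic subunit of the fibrin crosslinking factor made in megakaryocytes and macrophages, and Tfpi, the inhibitor of tissue factor, were higher by 3.62, 4.44 and 2.37. In knockout mice 11 were higher and 22 lower, beside 32.9% and 28.5% of all genes. Clu changed by -2.25, Fcnb by 3.62, F13a1 by 4.63 and C1rl, a relative of C1r, by -1.89. Between genotypes in newborns 2 of 43 passed, beside 1.50% of all genes. C3ar1, the receptor of C3a, was higher by 0.57 ± 0.10 (limma adjusted p = 0.0346). Fcna, a ficolin of liver macrophages, changed by -1.37 ± 0.28 (limma adjusted p = 0.0492). Hrg and C4a, at -0.51 and -0.78, did not pass. In adults 0 of 43 passed in fasted livers, beside 0.477% of all genes, and 0 of 43 in fed livers, beside 0.215%. Thbd, thrombomodulin, came closest in fasted livers at 0.93 (limma adjusted p = 0.162), and Fcna in fed livers at 0.48 (limma adjusted p = 0.388). With feeding 10 were higher and 10 lower in fasted controls, beside 20.2% and 16.6% of all genes. Among them were C4a at 1.99, Hrg, a histidine-rich plasma protein, at -1.46 and Hgfac at -0.80. In fasted knockouts 10 were higher and 11 lower, with the shares of all genes given above for this comparison. Among them were Hrg at -1.75, Hgfac at -0.95 and Clu at -1.12.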

How the data were processed

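The deposited files are scanner output of 22 2-colour arrays. Spot intensities were extracted by the authors with Agilent Feature Extraction, version 10.5.1.1 per the file headers and 8.5.1.1 per the submitters' processing notes. Liver RNA was in the green and a common reference RNA in the red channel on every array, per the labels, with no dye swap. From the deposited median intensities, local backgrounds that the software had marked as outliers were replaced by the array median. Background was then corrected with normexp (offset 50) and each array was normalized by loess with control spots at weight 0. Spots marked as outliers were left out, spots of 1 probe were averaged, and the brightest probe stood for its gene. Log2 ratios were tested with limma 3.58.1 in R 4.3.3 (lmFit, eBayes, two-sided, Benjamini-Hochberg over all genes tested, threshold 0.05). A gene was tested where its liver signal was well above background on at least 3 arrays (4 in the newborn comparison). The age comparison was fitted on all 22 arrays, genotype in newborns on 8, and genotype and feeding in adults on 14. Deposited log10 ratios of Feature Extraction's processed signals, the liver channel alone and the reference channel alone (quantile normalization) were alternatives. With slide as a random block 25 and 29 members were called by age and 26 and 27 by feeding. Each newborn group lay on 1 slide and each adult slide held 1 feeding state, so this block could not tell slide apart from age or feeding. With slide as a fixed block 0 members were called by genotype in either adult state.

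Of 41174 probes, 32831 took a current name from RefSeq and 8343 kept the file's name; members were matched on the file's name. Values on every array were given for up to 8 called members of each comparison with the smallest adjusted p (the 3 smallest where fewer than 3 were called) and always for Fga, Fgb, Fgg, F2, Serpinc1, C3, C9, Mbl1 and Mbl2; other names were chosen after their values were seen. The members, lists and tests were chosen with earlier results of these data known. For the other pathway genes, up to 4 per comparison with the smallest adjusted p were named, and 1 of these is not reported here. The fits were tested on simulated data. P-values measure the spread between the samples that the labels call biological replicates.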

Additional observations from a re-analysis of the deposited data

Results flagged for a closer look

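In 144 sets of 4 ratios (a gene in a group of 4 mice), 4 held 1 array far from the other 3 by Dixon's criterion, which chance meets in about 1 of 20 sets. C9 read 6.31 in fasted knockout 1, below 8.56 to 8.80 in the other 3. C1s read 1.87 in fasted control 3, below 2.16 to 2.22. C3 read 4.45 in fasted control 3, above 4.16 to 4.19. Cfb read 4.41 in fasted knockout 3, above 4.33 to 4.34, a gap of less than 0.1.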

How the results depend on the processing

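Each count is of the 37 members called (36 between newborn genotypes). Leaving out 1 array at a time gave 22 to 27 by age in wild type, 28 to 29 by age in knockouts, 0 to 3 between newborn genotypes, 0 to 0 between genotypes in fasted and in fed adults, 24 to 26 by feeding in controls, 24 to 28 by feeding in knockouts, and 0 to 0 for the interaction. With local backgrounds taken as scanned 12 were called by age in wild type, 0 between newborn genotypes and 18 by feeding in knockouts. Between newborn genotypes, where 1 was called, the count was 0 after median centring, 0 in the liver channel alone, 0 without the 3 newborn arrays that stood apart (chosen after seeing the data), 2 without a filter, 2 with all arrays in the fit, 3 with Feature Extraction's signals and 3 in the reference channel alone. By feeding, median centring gave 16 in controls and 18 in knockouts, and the liver channel alone 9 and 10.

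Whether replicate numbers pair the newborns is not settled: same-numbered newborns deviated together with correlations of 0.49, 0.34, 0.38 and -0.23. In fasted adults the correlations were -0.02 to 0.10, which shows little pairing. With the replicate number as a block the counts were 26 and 29 by age, 1 between newborn genotypes, 0 and 0 between adult genotypes, 26 and 28 by feeding, and 0 for the interaction.

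Over all genes the calls between newborn genotypes numbered 257, but 110 after median centring, 823 in the liver channel, 451 with Feature Extraction's signals, 440 with all arrays, 2358 in the reference channel, 76 without the arrays that stood apart and 0 with backgrounds as scanned. For fasted genotypes the main 82 became 149 with backgrounds as scanned, 159 with all arrays, 129 with slide as a block and 39 without fasted knockouts 1 and 2. For fed genotypes the main 37 became 11 with backgrounds as scanned and 69 with all arrays. Calls by feeding, 6327 and 6138, became 3838 and 3336 with backgrounds as scanned, and the interaction's 0 became 11 with Feature Extraction's signals. The median of all genes moved to 0.24 and 0.37 by age and 0.26 and 0.30 by feeding after median centring, and to 0.20 by age and 0.41 by feeding with Feature Extraction's signals.

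Of 2506 single values under an alternative, 2245 kept direction and side of the threshold, 178 lost their call, 5 gained one and 78 changed sign. The cause was not tested. In the liver channel alone F12 was -0.49 by age in wild type, and Cpb2 0.27, F11 1.58, F2 0.080, Fgg 0.095, Serpinf2 0.52 and Vtn -0.11 by age in knockouts. There F9 was 0.0056 between newborn genotypes, C1s -0.00060 between fasted genotypes and F7 0.20 in the interaction. By feeding in controls the liver channel gave C1s 0.25, C8a 0.83, C8g 0.31, Cfb 0.79, F12 0.071, F2 0.075, F9 -0.18, Fga 1.69, Fgb 0.18, Fgg 0.23, Plg 0.44, Pros1 0.046, Serpinf2 0.59 and Vtn 0.093. In knockouts it gave C2 0.53, C3 0.017, C8a 0.61, Cfb 0.69, Cfi 0.038, F12 0.10, F2 0.11, F7 0.022, Fga 1.35, Fgb 0.11, Fgg 0.19, Kng1 0.27, Plg 0.38, Serpinf2 0.40 and Vtn 0.38. Median centring gave Cpb2 0.10, F11 0.053 and Mbl1 0.062 by age in knockouts, C1s 0.24, C3 0.41, Cpb2 0.18, F12 0.14, Masp2 0.044 and Pros1 0.12 by feeding in controls, and C2 0.39, C3 0.42, C8g 0.050, Masp2 0.25 and Pros1 0.18 in knockouts. Feature Extraction's signals gave F5 0.18 by age in wild type and -0.81 by feeding in controls. With backgrounds as scanned C9 was -0.056, F5 -0.98, F9 -0.52 and Klkb1 -0.72 by feeding in controls, and C9 0.78 and F7 0.90 in the interaction. Against fasted adults alone Proz was 0.095 in wild type, and F2 0.62, Fgg 0.81, Serpinc1 0.18 and Serpinf2 0.26 in knockouts. Against fed adults alone Fgb was -0.094, Kng1 -0.20, Plg -0.45 and Proc -0.15 in wild type, and Cfb -0.32, Fga -0.26, Fgb -0.61 and Vtn -0.22 in knockouts. In the reference channel alone C6 was 0.64, F9 0.58 and Serpinf2 0.30 between newborn genotypes, and within slide 3 F13b was -0.050 between fasted genotypes. C9 in newborns is limited by its signal over background.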

Other observations

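The probe of Hc, the mouse gene for complement C5, was well above background on all arrays. Its log2 ratio was 7.41 ± 0.13 (SD, n = 4) in newborn wild type, 7.09 ± 0.14 (SD, n = 4) in newborn knockout, 7.05 ± 0.20 (SD, n = 4) in fasted control, 7.02 ± 0.14 (SD, n = 4) in fasted knockout, 7.32 ± 0.26 (SD, n = 3) in fed control and 7.61 ± 0.18 (SD, n = 3) in fed knockout livers.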
